A study of Mus musculus with 23 samples.

Results

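Ependymal cells are the ciliated epithelial cells that line the ventricles of the brain, and they were sought here with a rule on marker genes that took 1142 of the 249715 cell barcodes that passed a quality filter, out of 265025 deposited. A barcode stands for a droplet that held a cell, and each unique molecular identifier (UMI) for an RNA molecule counted in it. A barcode was taken when it held a UMI of at least 3 of the 7 genes Ccdc153, Tmem212, Foxj1, Rarres2, Dynlrb2, Ak7 and Mia, and when the summed UMIs of those 7 genes exceeded those of Cldn5, Flt1, Aqp4, Cx3cr1, P2ry12, Mog and Folr1, which mark other cells. The barcodes were thus chosen by the measured UMIs of these 14 genes, and the values of those genes are given as a description. The 1142 are called selected barcodes below, because the markers of a part of them went against the label of ependymal cells.

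The barcodes came from the brains of 12-week-old mice (3.3 months in the sample labels), dosed intravenously at 45 mg/kg with a protein carrying the red dye Alexa Fluor 647 (AF647) and perfused 24 hours later. TfR mu/hu KI mice, a knock-in line of the transferrin receptor, received ATV-TfR (named DNP02_hIgG1_LALAPG_ATV35.23.2 - Alexa647 in the labels), a transport vehicle that binds that receptor. CD98hc mu/hu KI mice received ATV-CD98hc (DNP02 LALAPG LLB2-10-8 monovalent - Alexa647), which binds the CD98 heavy chain, and C57BL/6J mice received a control IgG (DNP02_hIgG1_LALAPG_Alexa647). Each treatment thus had its own genotype, and treatment and genotype cannot be told apart. Cells of 1 male and 1 female mouse were pooled, live cells were sorted into an AF647-negative bin and bins of low, medium and high AF647, and 2 such pools per treatment gave 23 libraries, the negative bin of control IgG pool 1 being not analysed here. The 3 positive gates were tertiles of the AF647-positive cells of ATV-TfR and were used unchanged for the other treatments, so a bin name means the same fluorescence everywhere and not the same rank. The olfactory bulbs, cerebellum, pons and medulla had been removed, so ependyma of those regions is not represented. The libraries held 1861238 to 90307818 UMIs and 526 to 20570 barcodes past the filter, with 4 to 143 selected barcodes each.

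Mature ependymal cells carry tufts of motile cilia that move cerebrospinal fluid along the ventricle walls. Each cilium is built around an axoneme, a ring of microtubule doublets driven by dynein arms and held in register by radial spokes, and its genes are switched on together by the transcription factors Foxj1 and the RFX family. The choroid plexus epithelium, which secretes cerebrospinal fluid, and the tanycytes of the third ventricle are neighbouring cells of the same epithelial sheet that share some of these genes. The transferrin receptor (Tfrc) takes up iron-loaded transferrin, and the CD98 heavy chain (Slc3a2) pairs with several amino acid transporters of the Slc7 family.

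The selected barcodes fell into unlike portions, which are described by their genes. Ccdc153 and Tmem212, rule genes that were near 0 CPM in the other classes of barcodes, were both detected in 510 (44.7%), which are called double-positive below. Another 423 barcodes (37.0%) lacked this pair and held more UMIs of choroid plexus markers than of the 7 genes, and they are called choroid-rich. The markers summed for this were Folr1, Kl, Clic6, Kcnj13, Slc4a5, Sostdc1 and Otx2. A further 2 barcodes held more choroid plexus UMIs but were double-positive and are counted there. The remaining 209 (18.3%) were neither.

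The double-positive barcodes held genes of the motile cilium that the rule did not use. Dnah12, a heavy chain of the inner dynein arms, stood at 1099 counts per 1000000 UMIs (CPM) and was detected in 97.8% of them, against a highest level of 1.57 CPM in any other class of barcodes. Hydin, a protein of the central pair of axonemal microtubules, was detected in 94.7%, and Sntn, a protein of the ciliary tip, was the gene with the largest ratio to the other classes, at 261 CPM. Cd24a and S100b, surface and calcium-binding proteins long used to mark ependyma, were detected in 75.7% and 80.2%. The astrocyte marker Aqp4, a water channel that ependymal cells also make, was detected in 82.9% of the double-positive barcodes although it is a gene of the exclusion list.

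The choroid-rich barcodes had a different profile. Ccdc153, Tmem212, Dnah12 and Sntn were all at 0 UMIs in the 423 barcodes. Ttr, the thyroid hormone carrier transthyretin, which had no part in their definition, made up 144550 CPM. Kl, which encodes Klotho, is a gene of that definition and is given as a description. It was detected in 97.6% of these barcodes against 0.980% of the double-positive ones. The rule genes detected in them were Dynlrb2 (91.5%), Mia (91.5%), Foxj1 (77.5%), Ak7 (55.8%) and Rarres2 (17.97%). The separate class of choroid plexus barcodes also carried Dynlrb2, Mia and Foxj1, at 106, 206 and 42.2 CPM. The median of 11067 UMIs in the choroid-rich barcodes exceeded the 6882.5 of the double-positive barcodes. Further ependymal genes outside the rule were split. Rsph1, Tekt1 and Pifo were detected in 91.3%, 76.1% and 75.9% of choroid-rich barcodes, and Hydin, Enkur and Fam183b in 15.6%, 12.3% and 0.236%. The class of choroid plexus barcodes held Rsph1, Tekt1 and Pifo as well, at 233, 116 and 130 CPM. Going by Ttr, Dnah12 and Sntn alone, which the definition did not use, the choroid-rich barcodes do not carry the label of ependymal cells. Expression results are therefore given with them and for the double-positive barcodes alone.

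Of the remaining 209 barcodes, 98 (46.9%) held a UMI of at least 3 of 8 tanycyte markers, and 37 held at least 10 UMIs of Sspo, which encodes SCO-spondin, the giant glycoprotein that the subcommissural organ secretes into the fluid. Across all 1142 barcodes 2 met both descriptions, and 75 of the 209 met neither. Col23a1, a collagen of tanycytes, stood at 687 CPM in the remaining barcodes and at 33.5 CPM in the double-positive ones, and Rax, a hypothalamic transcription factor, at 156 and 3.57 CPM. Scrublet, which scores barcodes that may hold cells of different types, marked 7.45% of the double-positive, 0.946% of the choroid-rich and 6.22% of the remaining barcodes. The threshold of the rule fell in a dense region. Among barcodes whose UMIs of the 7 genes exceeded those of the exclusion genes, 693 had only 2 of the 7 and were left out. In the same group 406 had exactly 3 and were kept, 193 had 4 and 372 had all 7. A further 585 barcodes with exactly 3 were left out because of the exclusion genes.

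**Figure D1:**
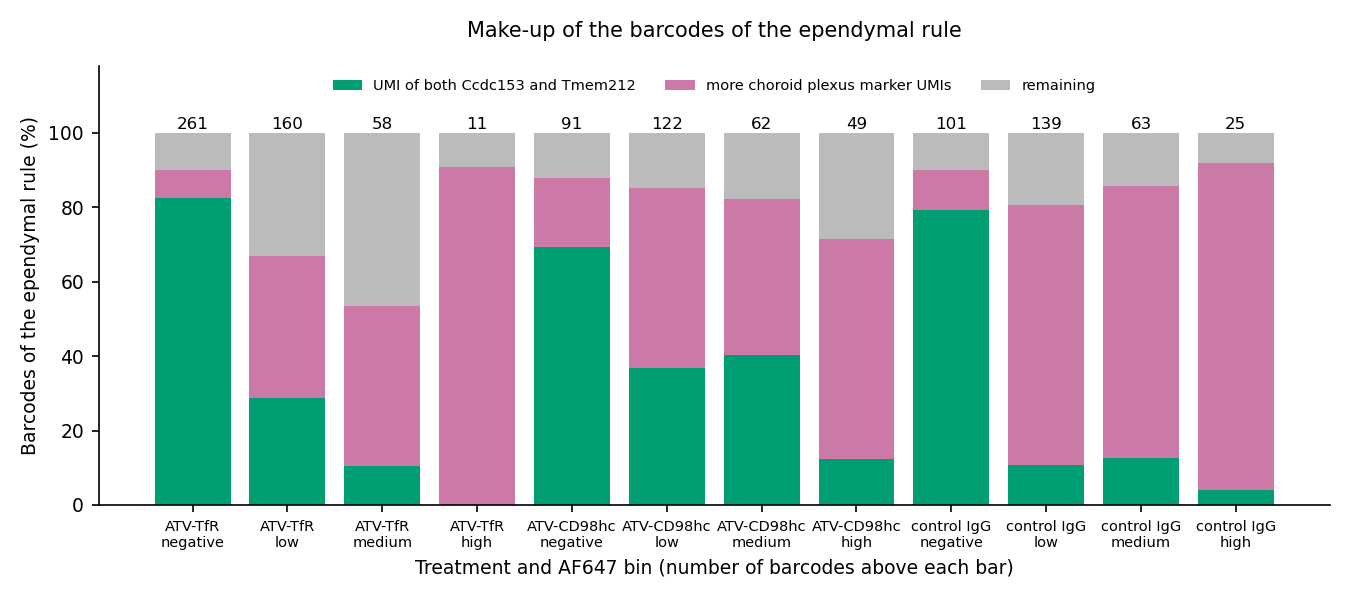
Make-up of the selected barcodes in each of 12 combinations of treatment and AF647 bin, in percent of the number printed above each bar. Double-positive barcodes made up 82.4% in the negative bin of ATV-TfR and 28.8%, 10.3% and 0% in its low, medium and high bins.

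Promoter windows are shown for 5 of the ciliary genes that held a motif searched for, described below: Ccdc153 and Dynlrb2 belong to the rule, Sntn and Hydin were described above, and Tekt1 encodes a tektin of ciliary microtubules. Tekt1 was detected in 83.5% of the double-positive, 76.1% of the choroid-rich and 71.8% of the remaining barcodes. They are RefSeq sequences of the GRCm38.p6 build, written 5′ to 3′ on the gene's strand and ending at the last base before the annotated transcription start. Capitals mark GTTGCC or its reverse complement GGCAAC, a core of the X-box that RFX factors recognise.
Ccdc153, chr9:44240485-44240676, plus strand: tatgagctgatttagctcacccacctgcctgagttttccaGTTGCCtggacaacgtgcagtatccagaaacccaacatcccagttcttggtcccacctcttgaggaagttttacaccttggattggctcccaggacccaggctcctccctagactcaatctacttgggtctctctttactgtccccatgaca
Dynlrb2, chr8:116504924-116505014, plus strand: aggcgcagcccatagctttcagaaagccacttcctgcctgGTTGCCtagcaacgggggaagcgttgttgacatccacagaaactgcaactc
Tekt1, chr11:72361883-72361957, minus strand: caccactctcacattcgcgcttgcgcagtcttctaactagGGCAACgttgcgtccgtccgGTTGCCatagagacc
Sntn, chr14:13670770-13670875, plus strand: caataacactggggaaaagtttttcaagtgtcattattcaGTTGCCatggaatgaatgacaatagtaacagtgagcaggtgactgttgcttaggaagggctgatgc
Hydin, chr8:110266924-110266976, plus strand: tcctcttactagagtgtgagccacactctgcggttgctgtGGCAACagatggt
Searched on both strands from 250 bases before to 50 bases after the start, the 6 letters were present in 10 of the 18 rule and further ependymal genes that had a promoter entry (55.6%) and in 14.1% of all 27025 promoters of the same length. The forkhead core GTAAACA, searched in the same way and not overlapping the first motif in its letters, was present in 2 of the 18 (11.1%) and in 4.05% of all promoters. Foxj1, Rarres2 and Rsph1 had no entry.

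Selected barcodes became rarer as AF647 rose in both ATV treatments, and most steeply in ATV-TfR. In ATV-TfR they made up 1.59% and 1.77% of the barcodes past the filter in the negative bins of the 2 pools, 0.570% and 0.377% in the low bins, 0.150% and 0.220% in the medium bins and 0.0205% and 0.0397% in the high bins. No library of a bin overlapped with a library of the next. In the high bins these shares rest on 4 and 7 barcodes, with exact 95% binomial intervals of 0.00557% to 0.0524% and 0.0160% to 0.0819%, which cover counting error only. In ATV-CD98hc the shares were 0.763% and 1.15%, then 0.382% and 0.267%, 0.174% and 0.151%, and 0.288% and 0.142%, so that the medium and high bins overlapped. In control IgG, where only about 1% of live cells were AF647-positive against about 30% and 20% in ATV-TfR and ATV-CD98hc, the order was different. Its negative bin stood at 0.830% and its low, medium and high bins at 2.31% and 2.25%, 3.78% and 4.62%, and 0.760% and 2.90%.

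The slope of the log odds of the share over the 4 bins was -1.29 per bin in ATV-TfR (8 libraries, two-sided exact permutation of the bin labels, p = 0.00079, which is the smallest this design allows, adjusted p = 0.0032 over 8 trends). In ATV-CD98hc the slope was -0.53 (adjusted p = 0.030 by the same exact permutation). In control IgG it was 0.16 over 7 libraries (exact permutation, p = 0.57). The slopes of the ATVs differed by -0.77 per bin, ATV-TfR being the steeper (exact permutation within bins over 16 libraries, adjusted p = 0.031). With labels exchanged only between pools of the same number the adjusted p was 0.062. Both permutations exchanged the libraries of a pool separately, although they share their mice and their treatment. With 2 pools per ATV, a permutation that keeps pools whole could not reach a p of 0.05. Without ATV-TfR pool 1 the difference was -0.65 (exact permutation, adjusted p = 0.14) and without its pool 2 it was -0.88 (adjusted p = 0.049). Without ATV-CD98hc pool 1 it was -0.61 (exact permutation, adjusted p = 0.099) and without its pool 2 it was -0.92 (adjusted p = 0.13).

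These shares depend on what else a bin holds. In a further setting barcodes with at least 3 UMIs of the endothelial genes Cldn5 and Flt1 were left out of the denominator. Selected barcodes were all kept, whatever their UMIs of these genes. Of those in the medium bins of ATV-CD98hc, 61.3% and 48.4% held a UMI of 4 endothelial genes, against 3.92% and 2.5% in its negative bins. The slope was then -0.32 in ATV-TfR (exact permutation, adjusted p = 0.31) and 0.56 in ATV-CD98hc (adjusted p = 0.089). Set against the count of choroid plexus barcodes in the same library, selected barcodes fell by 0.66 per bin on the log scale in ATV-TfR (exact permutation, adjusted p = 0.0032), and the ratio changed by -0.32 in ATV-CD98hc (adjusted p = 0.21). Set against astrocyte barcodes, the ratio changed by -0.66 per bin in ATV-TfR (exact permutation, adjusted p = 0.19) and by 0.73 in ATV-CD98hc (adjusted p = 0.086).

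The double-positive barcodes alone gave steeper slopes in both ATVs, and a slope of the other sign in control IgG. Their mean share in ATV-TfR was 1.39% ± 0.158 (SD, n = 2 pools) in the negative bin, 0.137% ± 0.0604 in the low bin and 0.0192% ± 0.00950 in the medium bin, and none was found among 19551 and 17611 barcodes of the high bin, which allows shares of up to 0.0153% and 0.0170%. In ATV-CD98hc the means were 0.693% ± 0.325, 0.119% ± 0.0116, 0.0653% ± 0.00301 and 0.0288% ± 0.0407. In control IgG they were 0.658% (1 library), 0.222% ± 0.125, 0.510% ± 0.515 and 0.0951% ± 0.134. The slopes were -2.06 per bin in ATV-TfR and -1.19 in ATV-CD98hc (exact permutation, adjusted p = 0.0021 for each). In control IgG the slope was -0.36 (exact permutation, adjusted p = 0.35), where all selected barcodes gave 0.16. The difference between the ATVs was -0.87 (exact permutation within bins, adjusted p = 0.0093), again with the libraries of a pool exchanged separately. Against astrocyte barcodes the double-positive barcodes fell by 1.43 per bin in ATV-TfR (exact permutation, adjusted p = 0.029) and changed by 0.06 in ATV-CD98hc (adjusted p = 0.86). Thinned to 1500 UMIs per barcode, so that depth was equal, selected barcodes made up 1.54% ± 0.228, 0.128% ± 0.0572, 0.0364% ± 0.00579 and 0% over the 4 bins of ATV-TfR, against unthinned means of 1.68%, 0.473%, 0.185% and 0.0301%.

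**Figure D2:**
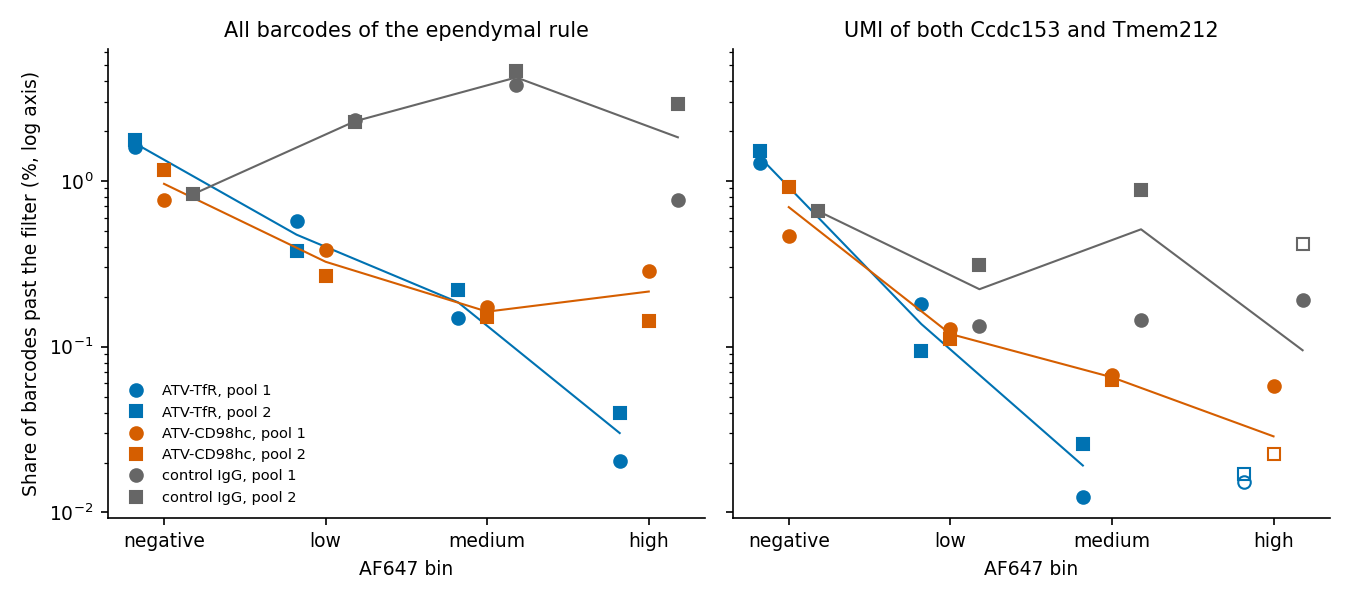
Share of barcodes past the filter that were selected (left) or double-positive (right), in percent on a log axis, by AF647 bin. Filled points are libraries (circles pool 1, squares pool 2), lines join the means of a treatment, and open points mark the limit that a count of 0 allows. Every positive library of both ATVs lies below the negative libraries of its treatment, whereas control IgG on the left lies higher in its low and medium bins than in its negative bin.

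The make-up of the selected barcodes moved with the bins. Double-positive barcodes made up 82.4% of those in the negative bin of ATV-TfR and 28.8%, 10.3% and 0% (0 of 11) in its low, medium and high bins. In ATV-CD98hc they made up 69.2%, 36.9%, 40.3% and 12.2%, and in control IgG 79.2%, 10.8%, 12.7% and 4%. The remaining barcodes made up 9.96%, 33.1%, 46.6% and 9.09% over the 4 bins of ATV-TfR, 12.1%, 14.8%, 17.7% and 28.6% in ATV-CD98hc and 9.90%, 19.4%, 14.3% and 8% in control IgG. Choroid-rich barcodes went from 7.66% to 38.1%, 43.1% and 90.9% in ATV-TfR, from 18.7% to 48.4%, 41.9% and 59.2% in ATV-CD98hc, and from 10.9% to 69.8%, 73.0% and 88% in control IgG. In the low and medium bins of control IgG most selected barcodes were choroid-rich: the choroid-rich share of all barcodes was 0.0904% in the negative bin and 1.65% ± 0.366 (SD, n = 2) and 3.10% ± 0.142 in the low and medium bins. Any gene measured over all selected barcodes therefore compares mixtures, and expression is given below for all of them and for the double-positive ones.

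In ATV-TfR, most genes of the dynein arms and radial spokes were lower, and most astrocyte and choroid plexus markers were higher, in selected barcodes of the low bin than of the negative bin. Summed UMIs per library were compared with edgeR's quasi-likelihood test over 10026 genes in the 19 libraries that had at least 20 selected barcodes, and 1308 genes were higher and 1367 lower at an adjusted p of 0.05 (26.7% of genes called, 13.6% in the lower direction). Of 21 dynein arm genes 17 were lower and 1, Dynlrb1, was higher (median log2 fold change -1.44, against 0.03 over all genes tested), and of 22 genes of radial spokes, central pair and struts 18 were lower (median -1.21). Of 24 genes in a list of microtubule inner proteins and tektins, which also holds the tip protein gene Sntn, 15 were lower (median -1.06), as were 7 of 10 dynein assembly factors (median -1.01), 6 of 10 tested regulators of multiciliation (median -0.87) and 8 of 24 tested genes of intraflagellar transport (median -0.45). In contrast, 5 of 7 astrocyte markers and 6 of 8 choroid plexus markers were higher. These lists hold Aqp4 and Folr1, genes of the selection rule, so their counts are a description. The share of double-positive barcodes fell between the same bins from 82.4% to 28.8%.

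Sntn stood at 275 and 250 CPM in the negative bins of the 2 pools, at 23.9 and 7.71 CPM in the low bins and at 0 and 18.9 CPM in the medium bins of ATV-TfR. The bins did not overlap between negative and low, and the log2 fold change was -3.86 (SE 0.54, edgeR adjusted p = 0.00029). Dnali1, a light intermediate chain of the inner dynein arms, fell by 1.50 on the log2 scale, Drc1 of the dynein regulatory complex by 1.59, Ift172 of the intraflagellar transport trains by 1.48 and Trp73, a transcription factor of multiciliation, by 1.73. Cd24a was at 297 and 407 CPM in the negative bins and at 78.9 and 55.6 CPM in the low bins, a fall of 2.27. Pltp, which transfers phospholipids between lipoproteins, fell by 2.25, from 1320 and 1588 CPM to 323 and 247 CPM, and Slc2a1, the glucose transporter, by 1.96. Phgdh, the first enzyme of serine synthesis, rose from 57.6 and 45.7 CPM to 216 and 248 CPM, a log2 fold change of 2.26. Cspg5 and Bcan, proteoglycans of the brain's extracellular matrix, rose by 1.83 and 2.14, and Clic6, a chloride channel protein of the choroid plexus, by 2.15, but Clic6 changed by -0.23 without choroid-rich barcodes (edgeR adjusted p = 0.83). Without pool 2 of ATV-TfR Dnali1 and Ift172 were not called, and without pool 1 Trp73 was not. In the double-positive barcodes Dnali1, Drc1, Ift172, Trp73, Cd24a, Slc2a1 and Clic6 were not called, while Sntn, Pltp, Phgdh, Cspg5 and Bcan were. In the medium bin of ATV-TfR, 1157 genes were higher and 1238 lower than in the negative bin (23.9% called, 12.3% lower), with 18 of 21 dynein arm genes lower.

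The counts of other gene lists in the low bin of ATV-TfR stand beside the 26.7% of all genes called, 13.0% higher and 13.6% lower. Of 20 glial genes 8 were lower and 3 higher (median -0.61), of which S100b fell by 2.15 on the log2 scale and Glul and the glutamate transporter gene Slc1a3 rose by 1.52 and 1.10. Of 14 tested genes of water, ion and acid-base transport 4 were higher, among them the carbonic anhydrase genes Car2, by 1.69, and Car14, by 1.48, and the bicarbonate transporter gene Slc4a4, by 1.55, while 3 were lower. Among 19 genes of endosome and vesicle traffic 4 were higher, including the clathrin light chain gene Clta, by 0.98, and Rab11a of recycling endosomes, by 0.98, and Eea1 alone was lower, with a log2 fold change of -1.29. Among 17 lysosomal genes Npc2, a carrier of cholesterol in the lysosome, was higher. Of 11 immediate early and stress genes the heat shock genes Hsp90aa1 and Hspa1b fell by 1.27 and 1.70. Of 15 transcription factors that pattern brain regions Otx2, Hopx and Nkx2-1 were higher and Irx3 and Irx5 lower. The endosome, lysosome and stress lists had a share of called genes near or below that of all genes. In the double-positive barcodes the members of these 6 lists that passed the test were Slc1a3 and Slc4a4, both higher. Over all selected barcodes Slc4a4 was not called with no UMI of 4 endothelial genes or without either pool of ATV-TfR. S100b and Hsp90aa1 were not called without pool 2 of ATV-TfR.

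Without ATV-TfR pool 1 the low against negative count was 835 genes and without pool 2 it was 221, with the lone libraries assumed to vary like the other groups. The medium against negative count was 921 and 278 in the same settings. Markers of other cells moved with the bins: summed oligodendrocyte markers were 184 to 733 CPM in the negative bins of ATV-TfR and 56.2 to 67.9 CPM in its low bins, and pericyte and smooth muscle markers 318 to 1700 and 39.4 to 47.8 CPM. Their part in the result was not tested.

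Within the double-positive barcodes few ciliary genes passed the test. These barcodes were chosen by UMIs of Ccdc153 and Tmem212, and few were left in the low bins. A missing call therefore does not show an equal level. In libraries with at least 10 such barcodes (29 and 17 in the low bins of ATV-TfR against 115 and 100 in the negative bins), 97 of 6694 genes were higher and 46 lower (2.14% called, 1.45% higher and 0.687% lower). Of the dynein arm genes 1 of 21 was lower, Dnah3, of the list of microtubule inner proteins 1 of 23, the tip protein gene Sntn, of the multiciliation regulators 1 of 8, Myb, and of the radial spoke genes 0 of 21. The medians of these lists were -0.34, -0.43, -0.66 and -0.27, against 0.02 over all genes tested. Dnah12 was at 995 and 1048 CPM in the negative bins and at 861 and 782 CPM in the low bins, and Hydin at 658 and 671 against 576 and 530 CPM. Sntn stood at 348 and 300 CPM in the negative and at 98.4 and 40.7 CPM in the low bins, a log2 fold change of -2.14 (edgeR adjusted p = 7.6e-05). Pltp fell by 1.10 (edgeR adjusted p = 0.025). It was not called in libraries with at least 20 such barcodes, where the low bin of ATV-TfR had 1 library. Barcodes with at least 10 UMIs of Sspo were 3 of the 215 double-positive barcodes in the negative bin and 12 of the 46 in the low bin, and their part in these differences was not tested. Of the 2675 genes called in all selected barcodes 110 (4.11%) were also called in the double-positive ones, which were 76.9% of the 143 called there.

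Of 7 astrocyte markers, 2 were higher in double-positive barcodes of the low bin of ATV-TfR, Slc1a2 and Slc7a10, beside 1.45% of all genes (median log2 fold change 1.82). In ATV-CD98hc 3 were higher, the same pair and Aldoc, beside 0.553% of all genes (median 1.67), and none was lower in either treatment. In ATV-TfR, Cspg5 rose by 2.38 and Slc7a10, a transporter of small neutral amino acids that pairs with the CD98 heavy chain, by 3.27 (edgeR adjusted p = 0.00097), and Phgdh by 1.86. Slc1a2, the main glutamate transporter of astrocytes, was at 178 and 271 CPM in the negative bins and at 1166 and 489 CPM in the low bins of ATV-TfR, and at 622 and 349 against 1675 and 1385 CPM in ATV-CD98hc. In ATV-CD98hc, Slc7a10 rose by 2.52 (edgeR adjusted p = 0.039), Cspg5 by 1.66, Mertk, a receptor for engulfing cell debris, by 2.86, Cst3, the protease inhibitor cystatin C, by 1.86, Apoe by 1.23 and Glul, glutamine synthetase, by 1.36. Over all selected barcodes Cspg5, Cst3, Apoe and Glul were not called without either pool of ATV-CD98hc, and Slc7a10 was not called without pool 1. Leaving out a pool was not tried in the double-positive barcodes. Mertk, Cst3 and Apoe are genes of microglia as well as of astrocytes. Summed microglia markers in the same barcodes were 153 to 249 CPM in the negative and 717 to 919 CPM in the low bins of ATV-CD98hc, and 407 to 428 and 108 to 709 CPM in ATV-TfR, and their part was not tested. Slc1a2 also differed in the choroid-rich barcodes, where it stood at 100 CPM in the negative and at 489 and 395 CPM in the low bins of ATV-TfR, and at 36.1 CPM against 512 and 637 CPM in ATV-CD98hc, with only 1 negative library deep enough in each. In choroid-rich barcodes of the low and medium bins of control IgG it was at 0 in all 4 libraries. Astrocyte barcodes were 13742 of 16150 and 16190 of 18052 barcodes past the filter in the low bins of ATV-TfR and 12 of 2247 and 19 of 3869 in those of control IgG, and the part of RNA from other cells in these genes was not tested. Slc7a10 stood at 104 CPM in the choroid-rich, 29.2 CPM in the double-positive and 0 CPM in the remaining barcodes of control IgG.

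**Figure D3:**
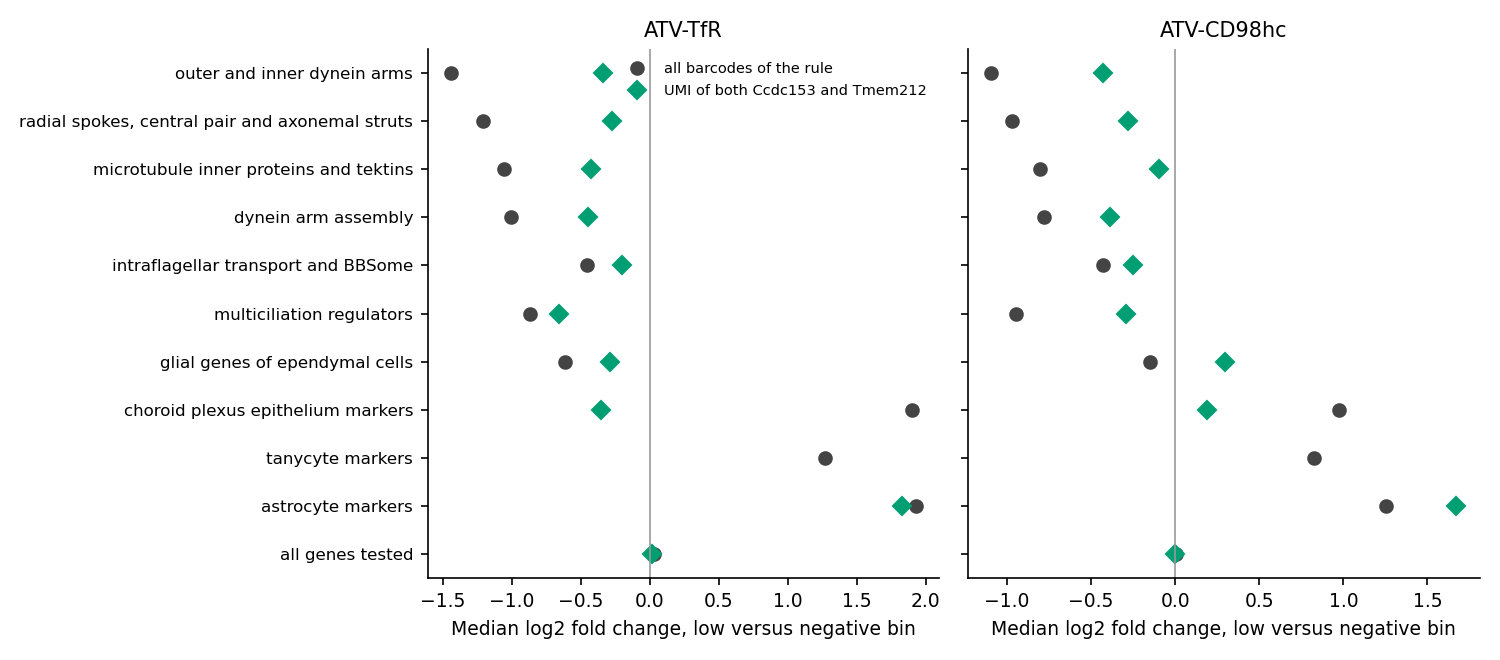
Median log2 fold change of low against negative bins for gene lists, in ATV-TfR (left) and ATV-CD98hc (right). Circles are all selected barcodes and diamonds double-positive barcodes. The ciliary lists lie between -1.44 and -0.43 as circles and closer to 0 as diamonds, whereas astrocyte markers lie above 1 in both, and tanycyte markers have no diamond where too few were tested.

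In ATV-CD98hc, 169 genes were higher and 229 lower in all selected barcodes of the low bin than of the negative bin (3.97% called, 1.69% higher and 2.28% lower). Of the ciliary lists, 7 of 21 dynein arm genes, 4 of 22 radial spoke genes and 3 of 24 microtubule inner proteins were lower, with medians of -1.09, -0.97 and -0.81. In libraries with at least 10 double-positive barcodes none of the genes in these lists was called in that class (0.807% of 6694 genes called in all, 0.553% higher and 0.254% lower, medians -0.43, -0.28 and -0.10). In libraries with at least 20 such barcodes Dnaic2, an intermediate chain of the outer dynein arms, was lower (log2 fold change -1.37, edgeR adjusted p = 0.041). Fhod3, a formin that assembles actin, fell by 3.83 over all selected barcodes, and from 119 and 164 CPM to 6.34 and 24.9 CPM in the double-positive ones. Unc5cl fell by 2.94, Frmd5 by 2.06 and Eea1, a tether of early endosomes, by 1.48, and in the double-positive barcodes the same 3 fell by 2.15, 1.39 and 1.44. Eea1 was not called without either pool of ATV-CD98hc, and Frmd5 was not called without pool 1. Mertk rose by 2.77 over all selected barcodes, from 28.6 and 15.7 CPM to 142 and 149 CPM. The count of 398 genes was 13 without ATV-CD98hc pool 1, 59 without pool 2, 218 and 212 without either pool of ATV-TfR, and 754 and 770 without either pool of control IgG; with the pool as a block it was 846. Mbp, the myelin basic protein of oligodendrocytes, fell by 2.96, but was not called in double-positive barcodes or without pool 2 of ATV-CD98hc. Summed oligodendrocyte markers were 1225 to 1618 CPM in the negative and 31.5 to 64.0 CPM in the low bins, and their part was not tested.

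In the medium bin of ATV-CD98hc, 38 genes were higher and 32 lower than in the negative bin (0.698% called, 0.379% higher and 0.319% lower), and the genes that led were endothelial. Slco1a4, an anion transporter of brain endothelium, rose by 5.77, and 5 of 7 endothelial markers were higher. The endothelial list holds Cldn5 and Flt1, genes of the selection rule, so its count is a description. Ly6c1 and Ly6a, surface proteins of endothelium, were at 0 in both negative bins, and at 64.3 and 223 CPM and at 75.0 and 145 CPM in the medium bins. Summed endothelial markers were 503 to 1194 CPM in these medium bins and 8.59 to 19.7 CPM in the negative bins, and with barcodes holding a UMI of 4 endothelial genes left out this comparison could not be fitted. Slco1a4, Ly6a and Ly6c1 were not called without pool 2 of ATV-CD98hc. In the double-positive barcodes 17 genes were higher and 11 lower (0.418% called, 0.254% higher and 0.164% lower). Slco1a4 and Ly6a were still called there, Ly6a with a log2 fold change of 9.33 (edgeR adjusted p = 3.5e-06), and Ly6c1 was not. The count was 27 without ATV-CD98hc pool 1 and 5 without pool 2, and 338 with the pool as a block.

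The high bin of ATV-CD98hc had 1 library with at least 20 selected barcodes, so the other groups give the spread of its test, and 12.2% of the selected barcodes of the bin were double-positive. Against the negative bins 405 genes were higher and 397 lower (8.0% called, 4.04% higher and 3.96% lower), a count that was 404 without ATV-CD98hc pool 2 and 1639 when libraries with 10 barcodes were let in. Genes of choroid plexus led: Slc4a5, a sodium bicarbonate transporter, rose by 4.53 and Kl by 3.41. Of 17 tested lysosomal genes 6 were higher and none lower (median 1.10, against 0.00 over all genes), among them Lamp2, a lysosomal membrane protein (log2 fold change 1.95), and the protease gene Ctsd (2.01). Lamp2 stood at 85.9 and 114 CPM in the negative bins and at 330 CPM in the high bin library of pool 1. In control IgG, where choroid-rich barcodes were 69.8% to 88% of the selected barcodes of the positive bins, Lamp2 was at 230 to 392 CPM in those bins and at 144 CPM in the negative bin. Nkx2-1, a transcription factor of the ventral forebrain, rose by 4.27.

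Tfrc, the receptor that ATV-TfR binds, had few UMIs in selected barcodes. None of the classes compared here is known to lack Tfrc or Slc3a2, so no background share from free RNA could be given for either. Within libraries with at least 20 selected barcodes, Tfrc was detected in 4.18%, 7.87% and 8.95% of those of ATV-TfR, ATV-CD98hc and control IgG, with 23, 32 and 35 UMIs in all. Its mean level over libraries was 9.50 ± 11.4 CPM (SD, n = 6), 14.3 ± 16.3 (n = 7) and 10.3 ± 8.61 (n = 6), below the levels in endothelial barcodes of the same treatments, at 107, 364 and 442 CPM. Whether reads of the knock-in allele of TfR mu/hu KI mice were counted in full on a mouse build was not tested. In choroid plexus barcodes Tfrc had 6.04, 10.8 and 11.1 CPM, of the same order as its level in the selected barcodes. The selected barcodes include the choroid-rich ones, so this level of Tfrc is that of a mixture. By library it was 3.71 and 2.47 CPM in the negative bins of ATV-TfR, 7.17 and 0 in the low bins and 31.1 and 12.6 in the medium bins. The bins of ATV-TfR overlapped between negative and low (log2 fold change 0.39, SE 0.97, edgeR adjusted p = 0.81), and the medium bins were higher (2.72, SE 0.89, edgeR adjusted p = 0.026). Summed endothelial markers were 78.8 to 97.6 CPM in these medium bins against 17.3 to 43.6 CPM in the negative bins, and with barcodes holding a UMI of 4 endothelial genes left out the difference was 2.75 (edgeR adjusted p = 0.067). Under a stricter barcode filter (1000 genes detected and 2000 UMIs as minimum, 5% mitochondrial UMIs as maximum) it was 1.81 (edgeR adjusted p = 0.24), and 2.32 and 3.06 without pool 1 and pool 2 of ATV-TfR (adjusted p = 0.32 and 0.13). In ATV-CD98hc Tfrc was at 0 and 0 CPM in the negative bins, 5.25 and 7.11 in the low bins and 42.8 and 29.7 in the medium bins, the bins with the endothelial transcripts described above (edgeR adjusted p = 0.031 for medium against negative, 0.075 with that stricter barcode filter, 0.28 and 0.39 without pool 1 and pool 2 of ATV-CD98hc, and 0.15 by DESeq2). With so few UMIs no lower level in any bin was detectable.

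Slc3a2, the CD98 heavy chain gene, was detected in 42.4%, 26.2% and 47.2% of selected barcodes of ATV-TfR, ATV-CD98hc and control IgG, within the same libraries. Its mean level over libraries was 88.4 ± 22.3 CPM (SD, n = 6), 44.2 ± 12.9 (n = 7) and 95.9 ± 20.6 (n = 6). All 4 negative and low bin libraries of ATV-CD98hc, at 28.6 to 49.7 CPM, lay below the 4 of ATV-TfR, at 69.2 to 111 CPM. The differences over all selected barcodes did not pass the test: in the negative bins the log2 difference of ATV-TfR over ATV-CD98hc was 1.19 (SE 0.34, edgeR adjusted p = 0.47), and in the low bins 1.05 (SE 0.27, adjusted p = 0.081). Without choroid-rich barcodes the low bins differed by 1.37 (edgeR adjusted p = 0.0045) and the negative bins by 1.34 (0.15), and in double-positive barcodes the low bins differed by 0.86 (0.50). The other classes named here had a lower mean in ATV-CD98hc as well, with 312, 137 and 261 CPM in astrocyte, 392, 208 and 460 CPM in endothelial and 97.2, 44.0 and 94.8 CPM in choroid plexus barcodes of ATV-TfR, ATV-CD98hc and control IgG. Because CD98hc mu/hu KI mice received only ATV-CD98hc, genotype and treatment cannot be told apart here. The builds named are of the mouse, and whether reads of the knock-in allele were counted in full was not tested. Across bins Slc3a2 was higher in ATV-TfR in the low than in the negative bin (0.71, SE 0.23, edgeR adjusted p = 0.023), and by 1.00 without choroid-rich barcodes (0.0014), but the double-positive barcodes did not pass (0.53, adjusted p = 0.59). It missed the threshold without either pool of ATV-TfR (edgeR adjusted p = 0.33 and 0.25), with DESeq2 (0.37), with no UMI of 4 endothelial genes (0.084) and under the stricter barcode filter (0.073). In ATV-CD98hc Slc3a2 was higher by 1.37 in the 1 library of the high bin than in the negative bins. Its call was lost with the pool as a block (1.38), with DESeq2 (1.29) and with RLE in place of TMM scaling (1.29). It was also lost with no low-count filter, with doublets removed, without pool 2 of ATV-CD98hc and without either pool of ATV-TfR.

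**Figure D4:**
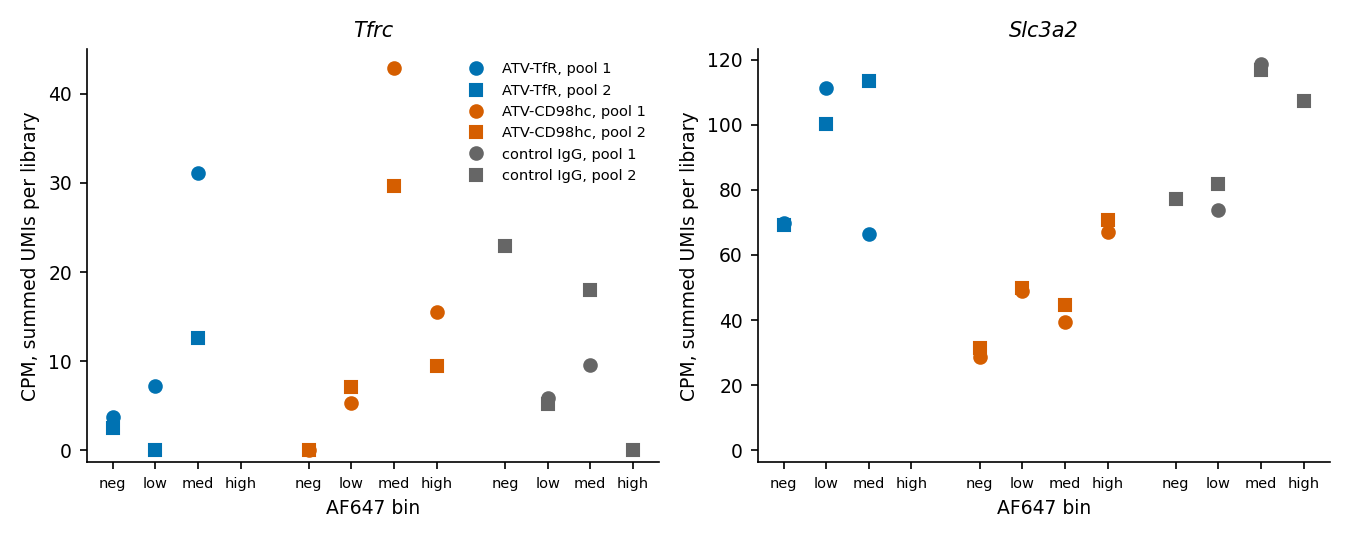
Level of Tfrc (left) and Slc3a2 (right) in selected barcodes of each library, in CPM of summed UMIs, by treatment and AF647 bin; circles are pool 1 and squares pool 2, and libraries with fewer than 10 selected barcodes are not drawn. The Slc3a2 points of ATV-CD98hc lie between 28.6 and 70.6 CPM and those of control IgG between 73.6 and 119 CPM.

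Among 11 tested genes of receptors, CD98 partners and antibody handling, 4 were higher and 2 lower in the low bin of ATV-TfR (median 0.49), beside 13.0% of all genes higher and 13.6% lower. Slc7a10 rose by 2.57, from 19.5 and 18.5 to 112 and 100.3 CPM. Lrp2, the endocytic receptor megalin, fell by 1.31 over all selected barcodes but changed by 0.48 in the double-positive ones (edgeR adjusted p = 0.72). In the medium bin of ATV-CD98hc Slc7a5, the large neutral amino acid transporter of brain endothelium that pairs with the CD98 heavy chain, rose by 2.80, from 8.59 and 11.8 to 39.3 and 89.0 CPM, beside the endothelial markers of the same libraries. It was not called with DESeq2 or without either pool of ATV-CD98hc. Of 10 tested iron genes, Ftl1 and Trf were higher and Cp and Slc11a2 lower in the low bin of ATV-TfR, beside the same shares of all genes. Cp, the ferroxidase ceruloplasmin, fell by 2.74, from 84.5 and 80.3 to 16.7 and 4.63 CPM. Without choroid-rich barcodes its change was -2.04 (edgeR adjusted p = 1.4e-05) and in the double-positive barcodes -1.40 (0.085). Without pool 1 and pool 2 of ATV-TfR it was -3.95 and -2.23 over all selected barcodes (edgeR adjusted p = 0.081 and 0.21). Cp stood at 84.5 CPM in the double-positive and at 3.41 CPM in the choroid-rich barcodes of ATV-TfR. Trf, transferrin, rose by 1.40 over all selected barcodes and changed by -0.87 without the choroid-rich ones (edgeR adjusted p = 0.48).

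A group of Sspo-rich barcodes stood out within the selected barcodes. At least 10 Sspo UMIs were found in 58 barcodes (median 45.5, highest 91), 29 had 1 to 4 and none had 5 to 9. Spdef, a transcription factor of secretory cells, was detected in 100% of the 58 and in 0% of the others, Spp2 in 100% and 0.554%, Creb3l4, a transcription factor of secretory cells, in 87.9% and 1.75%, and Car3, a carbonic anhydrase, in 84.5% and 5.17%. Rarres2 was detected in 20.7% of them against 63.4% of the others. Ccdc153 and Tmem212 were detected in 65.5% and 51.7% of them, and 21 of the 58 were double-positive.

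The Sspo-rich barcodes were unevenly spread over treatments. In ATV-TfR they numbered 6 and 5 in the negative bins of the 2 pools, 16 and 15 in the low bins, 5 and 1 in the medium bins and 0 and 0 in the high bins. In ATV-CD98hc they numbered 3 and 1 in the negative bins and 0 in all 6 positive libraries, and in control IgG 6 in the negative bin and 0 in all 6 positive libraries. Zero of 233 selected barcodes in the positive bins of ATV-CD98hc allows a share of up to 1.29%, while 19.4% of the selected barcodes in the low bins of ATV-TfR were Sspo-rich. Per 10000 barcodes past the filter they numbered 6.68 and 7.51 in the negative, 9.91 and 8.31 in the low and 3.12 and 0.648 in the medium bins of ATV-TfR, so that their rate differed less between the negative and low bins than their share of the selected barcodes. Their group was noticed in these data, and its counts are given without a test.

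**Figure D5:**
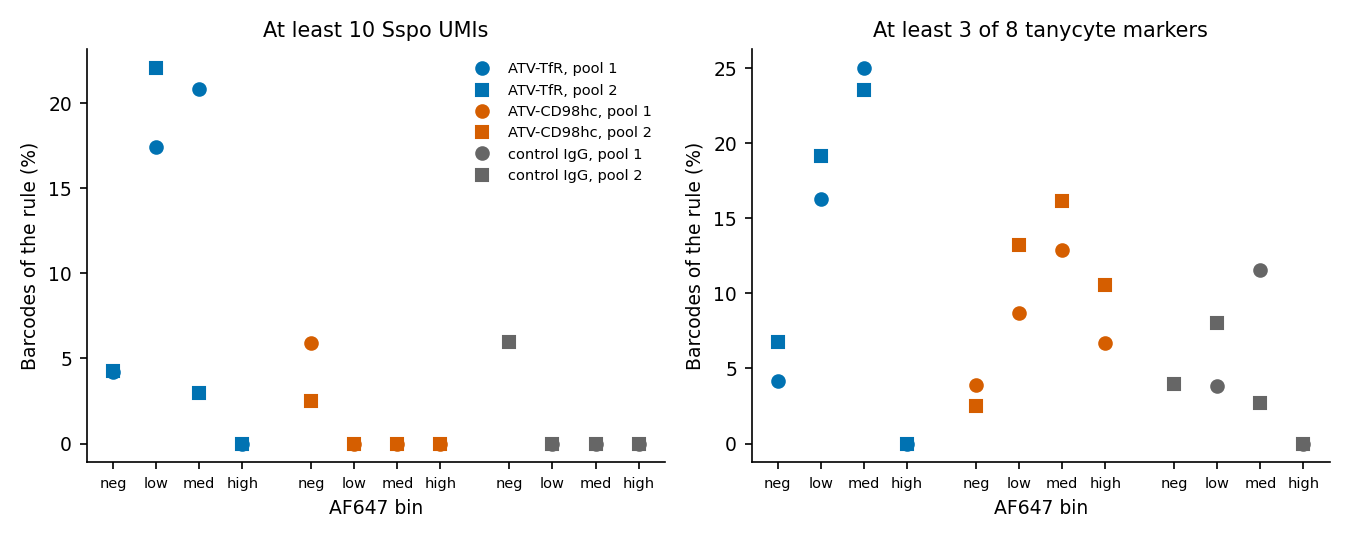
Percent of the selected barcodes of each library with at least 10 Sspo UMIs (left) or at least 3 of 8 tanycyte markers (right), by treatment and AF647 bin; circles are pool 1 and squares pool 2. Both low bin libraries of ATV-TfR lie at 17.4% and 22.1% on the left, where every positive library of ATV-CD98hc and control IgG lies at 0.

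Between the ATVs at the same bin few genes differed. In the negative bins no gene was higher in ATV-TfR than in ATV-CD98hc and 2 had lower levels (0.0199% called): Cul4b, a scaffold of ubiquitin ligases, and Clic6, with log2 differences of -1.43 each, and 666 genes at an unadjusted p under 0.05. Summed choroid plexus markers were 12941 to 13754 CPM in the negative bins of ATV-TfR and 25419 to 44849 CPM in those of ATV-CD98hc. Neither gene was called without choroid-rich barcodes (log2 differences -0.94 and -1.21, edgeR adjusted p = 0.50 and 0.37), with doublets removed or without any 1 of the 4 ATV pools. In the double-positive barcodes 0.0149% of genes were called. Clic6 was not among them, and Cul4b was not among the genes tested there. In the low bins 38 were higher and 9 lower (0.469% called, 0.379% higher and 0.0898% lower), but 142 higher and 166 lower without choroid-rich barcodes and 70 and 62 with no low-count filter. Sspo was higher by 7.29 (SE 0.91, edgeR adjusted p = 0.017), at 896 and 1142 CPM in ATV-TfR and at 1.75 and 11.8 CPM in ATV-CD98hc. Sspo was not called in double-positive barcodes, with no UMI of 4 endothelial genes or without either pool of ATV-CD98hc, and Car3 lost its call in the first and second of these settings and without pool 1. Car3 was higher by 3.82, Creb3l4 by 5.36, Diras2, a small GTPase, by 4.55 and Epha7, an ephrin receptor, by 2.55. Cdh8, a cadherin, was at 60.9 and 52.5 CPM in ATV-TfR and at 0 in both libraries of ATV-CD98hc. Creb3l4, Epha7 and Cdh8 were not called with DESeq2 or without pool 1 of ATV-CD98hc, nor was Creb3l4 without pool 2 of ATV-TfR. Diras2 differed by 5.35 and 4.14 without pool 1 and pool 2 of ATV-CD98hc and was called in neither setting. Apart from Sspo, which defines them, these genes were more often detected in the Sspo-rich barcodes than in the other selected barcodes, Diras2 in 98.3% and 4.89% of them, Cdh8 in 89.7% and 0.461% and Epha7 in 94.8% and 9.32%. Mertk and Lrp8, a receptor for apolipoprotein E, had lower levels in ATV-TfR, with log2 differences of -1.25 and -1.32, and neither was called with DESeq2 or without any 1 of the 4 ATV pools. Siglech, a gene of microglia, was at 0 in both low libraries of ATV-TfR and at 19.3 and 26.1 CPM in ATV-CD98hc. It was not called with DESeq2, under the stricter barcode filter, with at least 10 barcodes per library or without any 1 of the 4 ATV pools. In double-positive barcodes 38 were higher and 25 lower (0.941% called, 0.568% higher and 0.373% lower), and 12 of the 46 double-positive barcodes in the low bins of ATV-TfR were Sspo-rich, against none of 45 in ATV-CD98hc. The low bin count over all selected barcodes was 28 and 16 without either pool of ATV-TfR, 0 (edgeR, 714 genes at an unadjusted p under 0.05) and 11 without pool 1 and pool 2 of ATV-CD98hc, and 82 and 78 without pool 2 and pool 1 of control IgG.

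The change from the negative to the low bin itself differed between the ATVs for 2 genes, both higher in ATV-TfR (0.0199% called). Dlg2, a scaffold protein of cell junctions and synapses, rose by 2.75 more in ATV-TfR (SE 0.50, edgeR adjusted p = 0.039) and Diras2 by 5.19 more (SE 0.89, adjusted p = 0.039). Diras2 was at 28.8 and 33.4 CPM in the negative and 99.2 and 108 CPM in the low bins of ATV-TfR, and at 54.4 and 39.4 against 5.25 and 2.37 CPM in ATV-CD98hc. Both genes were detected more often in the Sspo-rich barcodes than in the others, Dlg2 in 93.1% of them and in 16.7% of the others. Dlg2 was at 58.5 and 33.4 against 147 and 127 CPM in ATV-TfR, and at 68.7 and 86.6 against 26.3 and 40.3 CPM in ATV-CD98hc. With the pool as a block 53 genes differed, 17 higher and 36 lower in ATV-TfR, and without choroid-rich barcodes 191, 81 higher and 110 lower. In the double-positive barcodes 16 genes differed (0.239% called), with both of these among them. DESeq2 called 3 genes, and neither Dlg2 (adjusted p = 0.36) nor Diras2 (0.063) was among them. The count of 2 was 9 and 10 without either pool of ATV-TfR, 0 without either pool of ATV-CD98hc (edgeR, 586 and 702 genes at an unadjusted p under 0.05), and 27 and 26 without either pool of control IgG.

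The negative bin of control IgG was a single library, so it was assumed to vary like the other groups, which gave the spread of the tests against it; its own spread is unknown. Against it 11 genes had lower levels in ATV-TfR and none had higher ones (0.11% called), and 5 had lower levels in ATV-CD98hc and none higher ones (0.0499% called). Slco1a4 differed by -4.81 (ATV-TfR) and -5.39 (ATV-CD98hc) on the log2 scale, and Ly6a, at 55.5 CPM in the control library, was at 1.86 and 0 CPM in ATV-TfR and at 0 in both libraries of ATV-CD98hc. The control library held 651 CPM of summed endothelial markers, all 7 of them detected, against 17.3 to 43.6 CPM in ATV-TfR and 8.59 to 19.7 CPM in ATV-CD98hc. Among barcodes with no UMI of 4 endothelial genes 0 genes were called in either comparison (edgeR, 338 and 380 genes at an unadjusted p under 0.05), where DESeq2 on all selected barcodes called 3 and 1. With Scrublet doublets removed 1 gene and 0 genes were called (edgeR, 378 genes at an unadjusted p under 0.05 for the second), and neither Slco1a4 nor Ly6a was called. In ATV-CD98hc Ly6a also missed the threshold with the pool as a block (log2 difference -7.39), with at least 30 UMIs in 2 libraries and with at least 10 barcodes per library. Both Ly6a and Slco1a4 missed it there with DESeq2 and without either pool of ATV-CD98hc. In ATV-TfR Ly6a missed it with DESeq2. The ATV-TfR count was 6 without ATV-TfR pool 2, and the ATV-CD98hc count was 2 without either pool of ATV-CD98hc and 11 without control IgG pool 1.

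Barcodes with tanycyte markers made up a larger share of the selected barcodes in the low and medium bins of the ATVs than in their negative bins. At least 3 of the 8 markers were detected in 5.36%, 17.5% and 24.1% of the selected barcodes of the negative, low and medium bins of ATV-TfR and in 0 of 11 in the high bin, in 3.30%, 10.7%, 14.5% and 8.16% over the 4 bins of ATV-CD98hc, and in 3.96%, 6.47%, 6.35% and 0% in control IgG. Of 7 tested markers 3 were higher in the low bin of ATV-TfR, Frzb, Gpr50 and Crym, and 3 in its medium bin, Frzb, Gpr50 and Rax, beside 13.0% and 11.5% of all genes higher. In that medium bin the log2 fold change was 2.29 for Nkx2-1, which was not called without either pool of ATV-TfR (edgeR adjusted p = 0.062 and 0.13). It was 1.68 for Rax, which was not called without ATV-TfR pool 1 (edgeR adjusted p = 0.27) or with DESeq2 (0.16). Per 10000 barcodes past the filter, barcodes with 3 tanycyte markers numbered 6.68 and 12.0 in the negative, 9.29 and 7.20 in the low, 3.74 and 5.18 in the medium and 0 and 0 in the high bins of ATV-TfR. In ATV-CD98hc they numbered 2.99 and 2.88 in the negative, 3.32 and 3.53 in the low, 2.25 and 2.43 in the medium and 1.92 and 1.50 in the high bins, rates that rest on 1 to 7 barcodes per library. In control IgG they numbered 3.29 in the negative, 8.90 and 18.1 in the low, 43.6 and 12.5 in the medium and 0 and 0 in the high bins, resting on 0 to 7 barcodes. The negative and low bins of ATV-TfR overlapped, and at these counts no order of the bins of ATV-CD98hc was detectable.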

How the data were processed

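Single-cell RNA of sorted mouse brain cells was counted by the authors with Cell Ranger 7.1.0 per the file headers, and the deposited counts are UMIs per gene and barcode, 32285 genes in 23 libraries pooled in 1 matrix. The submitters' processing notes also name Seurat 4 and 5, and the builds mm10 and GRCm38. Barcodes were assigned to libraries by their suffix. Members and gene lists were chosen with earlier results of these data known, so no list is independent support.

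Barcodes entered with 500 or more genes detected, 800 or more UMIs and no more than 10% mitochondrial UMIs, and members were taken by the rule given at the opening. No barcode was shared by members of different libraries, and 85 of 1142 recurred among passing barcodes of another library. Scrublet (scanpy 1.11.5) marked possible doublets, which were kept unless stated. In 8 libraries its threshold was set at the 94th percentile of the scores. Counts were summed over members per library and compared with edgeR 4.0.16 (R 4.3.3; TMM scaling, its expression filter, quasi-likelihood test, Benjamini-Hochberg adjustment, threshold 0.05) in 19 libraries with at least 20 members and 225326 to 1076783 UMIs, or at least 10 double-positive members. All groups shared 1 estimate of spread, with 1 mean per treatment and bin. Shares were compared by the slope of the log odds, 0.5 barcodes added to each side, with exact permutation tests (scipy 1.17.1). Intervals are exact binomial at 95% and floors are 3 counts, and both cover counting error only. The script was tested on simulated data.

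Pools of 1 male and 1 female mouse are the replicates. The bins of a pool came from the same mice, per the labels, which pairs bins within a treatment; the deviations of pools correlated at -0.0534 to 0.305 across genes, above 0.1 for 1 of 7 pairs of bins. The fit without a block is given, with blocked values where a call changed. Named genes were, per comparison, the 8 called genes per direction with the smallest p, at least 1 in absolute log2 fold change and no overlap of libraries, all tested genes of the receptor and iron lists, and up to 4 called genes per direction of the other lists. Alternatives were DESeq2 1.42.0, other gene and barcode filters, thinning to 1500 UMIs, doublet removal, other marker cut-offs, other denominators, a pool block and leaving out each pool. The choroid-rich and double-positive alternatives were added after seeing the data. The high bin of ATV-TfR, with 4 and 7 members, was not fitted. The results of some genes are not reported here.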

Additional observations from a re-analysis of the deposited data

Results flagged for a closer look

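The slope of the share of selected barcodes over the AF647 bins differed between ATV-TfR and ATV-CD98hc by -0.77 per bin on the logit scale (exact permutation, adjusted p = 0.031), with each treatment in its own genotype. The adjusted p was 0.062 with labels exchanged only between pools of the same number and 0.071 under the stricter barcode filter, by exact permutation. Without ATV-TfR pool 1, ATV-CD98hc pool 1 and ATV-CD98hc pool 2 it was 0.14, 0.099 and 0.13 by exact permutation. Each of these permutations exchanged the libraries of a pool separately, although they share their mice. The change of Dlg2 from the negative to the low bin differed between the ATVs by 2.75 on the log2 scale (edgeR adjusted p = 0.039). For Diras2 the same difference was 5.19 (edgeR adjusted p = 0.039). Neither gene was called by DESeq2 (adjusted p = 0.36 and 0.063), with at least 30 UMIs in 2 libraries, with doublets removed, with no UMI of 4 endothelial genes, under the stricter barcode filter or without either pool of ATV-CD98hc, at adjusted p of 0.063 to 0.66 over these settings, and Dlg2 was not called without pool 2 of ATV-TfR (edgeR adjusted p = 0.15). Both were called without choroid-rich barcodes (edgeR adjusted p = 2.9e-06 and 4.3e-08) and in double-positive barcodes (0.0053 and 0.0012 in libraries with at least 10). Dlg2 was detected in 93.1% and Diras2 in 98.3% of the Sspo-rich barcodes, and Sspo-rich barcodes numbered 31 of 160 in the low bins of ATV-TfR and 0 of 122 in those of ATV-CD98hc.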

How the results depend on the processing

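Of the 60 values of share trends under alternatives other than leaving out a pool, 47 kept direction and side of the threshold, and of 109 counts of called genes 55 stayed within 1.5 times. Values of named genes kept both in 932 of 1077 cases. The cause of each change below was not tested, except that fewer barcodes or genes entered the stricter settings. The counts rest on 21 to 143 selected barcodes per library, and the part of this number in them was not tested. The control IgG negative bin and the ATV-CD98hc high bin entered with 1 library each.

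With fewer than 3 UMIs of Cldn5 and Flt1 in the denominator, ATV-TfR had a share slope of -0.32, ATV-CD98hc of 0.56 and control IgG of -0.071. Thinned to 1500 UMIs, the control IgG slope was -0.23, the ratio to astrocyte barcodes in ATV-TfR -1.38 and the ratio to choroid plexus barcodes in ATV-CD98hc -1.01. Without choroid-rich barcodes the control IgG slope was -0.23 and the ATV-TfR ratio to astrocytes -1.21. In double-positive barcodes they were -0.36 and -1.43, and the ATV-CD98hc ratio to choroid plexus -0.98. The difference of slopes was -0.72 under the stricter barcode filter (exact permutation, adjusted p = 0.071). Under the replicate block it was -0.77, at an adjusted p of 0.062 by exact permutation.

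Counts of called genes are given in the order low and medium against negative in ATV-TfR, low, medium and high against negative in ATV-CD98hc, the negative bins and the low bins between the ATVs, the negative bins of ATV-TfR and of ATV-CD98hc against control IgG, and the difference of changes, naming only those that moved by over 1.5 times. With the replicate block, which changed no other count beyond 1.5 times, ATV-CD98hc low gave 846, medium 338 and the difference of changes 53. With no low-count filter ATV-CD98hc low gave 757, medium 298, the negative bins 34, the low bins 132, the 2 control comparisons 33 and 21 and the difference of changes 109. With at least 30 UMIs in 2 libraries the negative bins gave 1, the low bins 26, the control comparisons 6 and 3 and the difference of changes 0 (edgeR, 539 genes at an unadjusted p under 0.05). DESeq2 gave 917 and 1141 in ATV-TfR, 177, 25 and 318 in ATV-CD98hc, 5 in the negative bins, 5 in the low bins and 3 and 1 against control IgG. With Scrublet doublets removed the negative bins gave 0, the control comparisons 1 and 0 and the difference of changes 0 (edgeR, 691, 378 and 751 genes at an unadjusted p under 0.05 for the zeros). With no UMI of 4 endothelial genes both control comparisons and the difference of changes gave 0 (338, 380 and 827 genes unadjusted). The stricter barcode filter gave 29 in ATV-CD98hc medium, 9 for ATV-CD98hc against control IgG and 0 for the difference of changes (804 unadjusted). With at least 10 barcodes per library ATV-CD98hc high gave 1639 and ATV-CD98hc against control IgG 3. Without choroid-rich barcodes ATV-TfR low gave 1625, ATV-CD98hc low 242, the negative bins 23, the low bins 308, the control comparisons 29 and 12 and the difference of changes 191. Double-positive barcodes in libraries with at least 20 gave 103 and 106 for the low bins of the ATVs, 11 for the negative bins, 23 and 8 against control IgG and 28 for the difference of changes, and with at least 10 they gave 143 and 54, ATV-CD98hc medium 28, the negative bins 1 and the difference of changes 16.

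Without choroid-rich barcodes Clic6 in ATV-TfR low was at -0.23 and Trf at -0.87. In double-positive barcodes of at least 20 per library Lrp2 was at 0.37, Trf at -0.15 and Rfx2 at 0.19, and with at least 10 Lrp2 was at 0.48 and Trf at -0.13. Without doublets Slc3a2 in ATV-TfR against control IgG was at 0.035, and with no endothelial UMI at 0.23, with Spock2 at 0.34 and, in ATV-CD98hc, at 0.17.

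Leaving out 1 pool at a time, the ATV-TfR slope ranged from -1.41 to -1.18, the ATV-CD98hc slope from -0.68 to -0.37 and the control IgG slope from -0.51 to 0.46, and the difference of the ATVs from -0.92 to -0.61. The ratios to astrocytes ranged from -0.89 to -0.43 in ATV-TfR and 0.60 to 0.86 in ATV-CD98hc, and those to choroid plexus from -0.74 to -0.58 and -0.53 to -0.11. Counts ranged from 221 to 2983 and 278 to 2627 in ATV-TfR, 13 to 770, 5 to 207 and 404 to 1194 in ATV-CD98hc, 0 to 6 in the negative bins, 0 to 82 in the low bins, 6 to 13 and 2 to 11 against control IgG and 0 to 27 for the difference of changes. Tfrc in ATV-TfR low was at -3.23 without ATV-TfR replicate 1 and 0.98 without replicate 2, and between the low bins at -4.52 and 0.15.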

Other observations

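The sexes of the pooled mice could be read in part of the selected barcodes. UMIs of male genes alone were found in 404 barcodes, of female genes alone in 318, of both in 56 and of neither in 364, and barcodes with male and with female genes alone were present in every pool.

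Of the 66 deposited barcodes with at least 10 Sspo UMIs, 58 met the ependymal rule. The 7 that Scrublet marked as possible doublets among the 58 were kept.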
